A study of Homo sapiens with 12 samples.

Results

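The circadian clock genes CLOCK, ARNTL, PER1, PER2, PER3, CRY1, CRY2, NR1D1, NR1D2 and BHLHE40 were followed in the lung fibroblast line WI-38, grown with and without transforming growth factor (TGF)-β. The 10 genes were chosen by their known role, with earlier results of these data known, from 25702 genes in the raw count table. Each condition had 3 libraries, 1 from each of 3 flasks. The conditions were untreated cells at day 1 (D1, passages 2 to 3), cells given TGF-β for 1 day (D1+ TGF-β, passages 2 to 3), untreated cells at day 20 (D20, passages 5 to 6) and cells given TGF-β for 20 days (D20+ TGF-β, passages 5 to 6).

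All flasks held the same single cell line in medium with serum. The D1 flasks were confluent when TGF-β was added or the medium was changed, and were harvested the next day. For D20 and D20+ TGF-β, new flasks were seeded from 1 flask of each treatment, with cell numbers set to bring them near confluence at day 20. They were fed with fresh medium at a regular interval, with or without TGF-β, until harvest. Flasks of a condition were therefore parallel cultures, whose spread is the one that the p-values measure. Day cannot be told apart from passage, cell density or feeding. In D20+ TGF-β vs D20, the treatment and the flask that seeded each condition cannot be told apart either. Each condition was collected on 1 day, and the hour of harvest and the hours since the last medium change are not given in the sources used here. The libraries thus give 1 point of any daily cycle per condition, and a change of level cannot be told apart from a change of phase.

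The circadian clock is a transcriptional feedback loop that runs in most cells of the body, fibroblasts included, with a period of about a day. CLOCK and ARNTL (also called BMAL1) form a heterodimer that binds E-boxes in DNA and activates the PER, CRY and NR1D genes. The PER and CRY proteins then enter the nucleus and repress CLOCK and ARNTL, while NR1D1 and NR1D2 (REV-ERBα and REV-ERBβ) repress ARNTL transcription. BHLHE40 (DEC1) is a repressor that competes for E-boxes and is also induced by many outside signals. Cells in a dish drift out of phase with one another unless serum, fresh medium or another cue sets them together, so that the RNA of a flask is the average over its cells.

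All 10 genes were matched to RefSeq promoter windows (build GRCh38.p14), which gave 15 windows of 250 bases before a transcription start. The stretches below are shown because they hold the E-box, or the variant of it with a T in place of the last G, through which the loop acts on its own genes. They are written 5′ to 3′ along the strand of the gene, and the capitals mark the matched letters.
BHLHE40, chr3:4979187-4979246, + strand: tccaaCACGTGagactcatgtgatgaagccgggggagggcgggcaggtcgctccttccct
NR1D2, chr3:23945954-23945983, + strand: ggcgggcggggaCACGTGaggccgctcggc
NR1D2, chr3:23946004-23946033, + strand: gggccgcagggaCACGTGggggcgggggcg
PER1, chr17:8152545-8152604, − strand: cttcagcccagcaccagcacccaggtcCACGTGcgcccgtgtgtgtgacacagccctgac
CRY1, chr12:107093606-107093665, − strand: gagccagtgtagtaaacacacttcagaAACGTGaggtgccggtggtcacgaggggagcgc
CRY2, chr11:45847275-45847304, + strand: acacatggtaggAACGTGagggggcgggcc
NR1D1, chr17:40100725-40100784, − strand: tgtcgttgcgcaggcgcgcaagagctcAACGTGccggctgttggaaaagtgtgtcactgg
PER2, chr2:238288775-238288834, − strand: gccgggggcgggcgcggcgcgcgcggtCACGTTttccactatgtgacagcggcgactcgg
CLOCK, chr4:55546102-55546131, − strand: tcaccactcgggCACGTTtggagcagcgcc

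Motif letters were searched on both strands. The E-box CACGTG stood in 3 of the 15 windows (BHLHE40, PER1 and NR1D2, which holds it at both places shown) and in 6.34% of all 35116 promoter windows. The variant CACGTT, read as AACGTG on the other strand, stood in 5 of the 15 windows (CLOCK, CRY1, CRY2, NR1D1 and PER2) and in 4.55% of all windows. The D-box (TTATGTAA or TTACGTAA), the site of DBP, TEF, HLF and NFIL3, was found for NR1D2 and PER3 and in 0.94% of all windows. The ROR element (TAGGTCA or AAGGTCA), shared by the ROR and NR1D receptors, was found in 3 windows of CRY2 and PER1 and in 4.97% of all windows. The cAMP response element TGACGTCA was in 0 of the 15 windows and in 1.65% of all windows. No match of these genes overlapped a match of another motif. A match describes the letters of a window and does not show that a factor bound there.

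Library totals ranged from 8674488 to 18286197 counts. Values below are cpm, the counts of a gene scaled to a common library total and then by TMM factors, which correct for differences in library composition. A gene was called changed at an adjusted p under 0.01 (edgeR, quasi-likelihood test, Benjamini-Hochberg adjustment over all genes tested). Of the 10 clock genes, 7 passed the main filter. It asked for 10 cpm or more, before TMM scaling, in 6 libraries or more and kept 9490 genes. On that unscaled measure NR1D1 reached 10 cpm in 5 libraries, PER1 in 1 and PER2 in 0. These 3 genes were tested in a second fit to the 13768 genes kept by a lower limit, edgeR's filterByExpr.

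Of the 12 libraries, 2 stood apart from the others of their condition. In D1 replicate 2, 225 genes lay at least 1.5-fold above both other D1 libraries and 125 below (3.69% of the 9490 genes). In D20+ TGF-β replicate 3 there were 146 above and 233 below (3.99%), and in each of the other libraries at most 0.263% of the genes. The first of these libraries touches PER1, NR1D1 and NR1D2, and their comparisons with D1 are therefore given with and without it. Markers of fibroblasts were high as a sum, at 13416 to 22769 cpm for 8 genes, but LUM had a mean of 59.0 cpm in D1 and 318 cpm in D20. In D20+ TGF-β vs D20, 1 of the 8 was called higher and 2 lower. The summed level of 5 myofibroblast markers was 976 to 1637 cpm in D1 and 2967 to 3315 cpm in D1+ TGF-β. In D20 it was 1642 to 1691 cpm and in D20+ TGF-β 3581 to 4402 cpm. Of these, ACTA2 had means of 180, 754, 282 and 309 cpm and POSTN 157, 457, 246 and 2454 cpm in the same order. Of the markers of other cell types, 3 of 6 epithelial (KRT8, KRT18 and KRT19), 1 of 5 endothelial (TEK) and 1 of 5 leukocyte genes (CD68) passed the 10 cpm filter, while KRT5, CDH5, LYZ and CD3E were at 0 in every library. The summed level of the epithelial list was 38.5 to 59.9 cpm in D1, 57.4 to 59.3 cpm in D1+ TGF-β, 61.1 to 63.2 cpm in D20 and 36.5 to 49.5 cpm in D20+ TGF-β. That of the leukocyte list was 50.3 to 61.7, 39.1 to 40.7, 52.8 to 58.9 and 38.0 to 47.4 cpm in the same order. That of the endothelial list was 45.5 to 78.8, 34.4 to 40.1, 219 to 247 and 76.8 to 149.6 cpm, with TEK at a mean of 36.3 cpm in D1+ TGF-β and 234 cpm in D20. TEK was higher in D20 vs D1 (log2 fold change 2.05, edgeR adjusted p = 8.83e-06) and in D20+ TGF-β against D1+ TGF-β (1.72, adjusted p = 6.71e-05) and lower in D20+ TGF-β vs D20 (−0.97, adjusted p = 0.00327). The part of these markers in the values of the clock genes was not tested.

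BHLHE40 had the largest change of the 10 genes in both TGF-β comparisons. It was at 21.95, 20.82 and 17.98 cpm in the D1 flasks and at 61.79, 52.44 and 67.54 cpm in the D1+ TGF-β flasks. It was at 16.30, 16.93 and 16.90 cpm in D20 and at 43.03, 43.62 and 46.03 cpm in D20+ TGF-β. Every treated flask lay above every untreated flask at both times. BHLHE40 rose in D1+ TGF-β vs D1 by 1.57 on the log2 scale (SE 0.10, adjusted p = 2.16e-07 by edgeR), which is 2.98-fold. It rose by 1.40 in D20+ TGF-β vs D20 (SE 0.10, adjusted p = 2.92e-07), which is 2.64-fold. In the RNA of a whole flask, a change in every cell and a change in the share of cells that hold the transcript cannot be told apart.

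The level of BHLHE40 in treated cells was lower at day 20 than at day 1 (D20+ TGF-β against D1+ TGF-β, log2 fold change −0.45, SE 0.10, edgeR adjusted p = 0.00172), without overlap of flasks. Without D1+ TGF-β replicate 3 this difference was −0.36 and was not called (adjusted p = 0.0104). The untreated cells gave −0.28 in D20 vs D1 (SE 0.11, adjusted p = 0.0432), which was not called. The responses to TGF-β at day 20 and day 1 differed by −0.17 (SE 0.14, adjusted p = 0.423), which was not called. BHLHE40 lies at chromosome 3, 5021122 to 5027008 on the + strand (GRCh37).

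**Figure D1:**
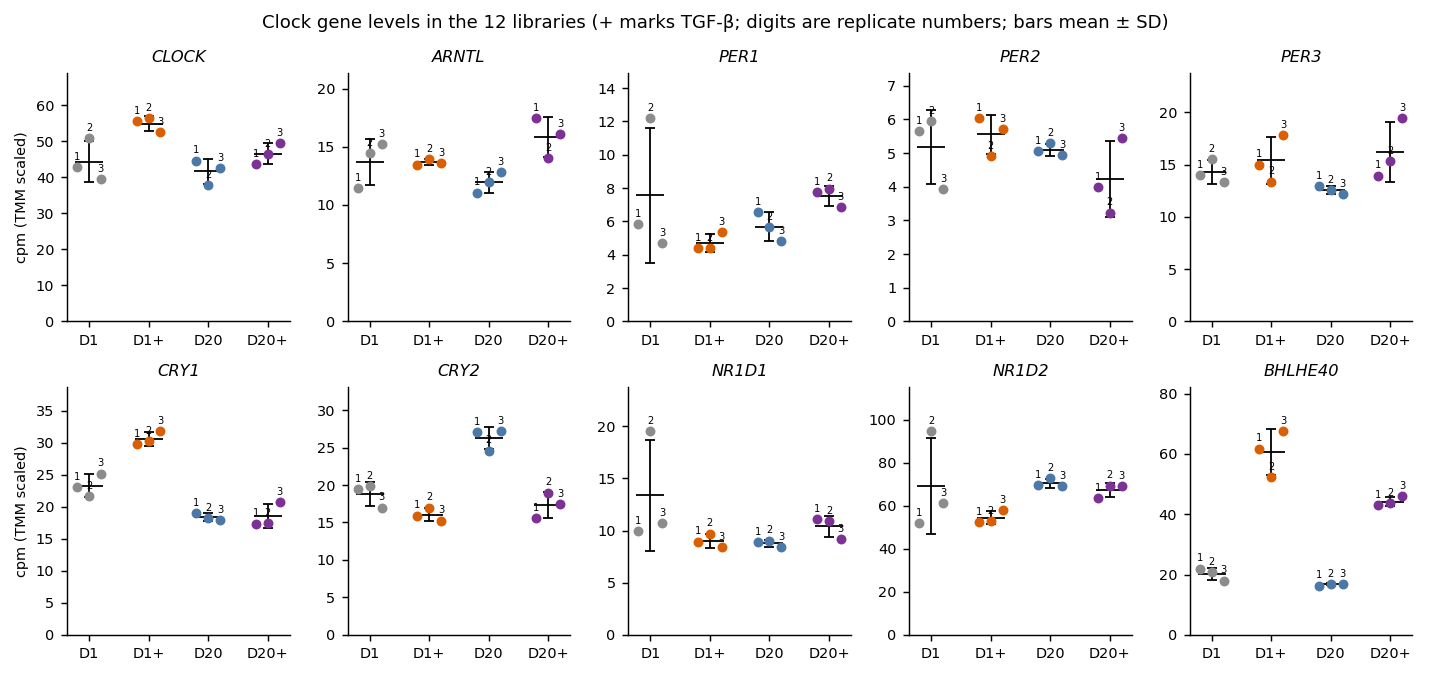
Levels of the 10 clock genes in the 12 libraries, in TMM-scaled cpm on linear axes that start at 0, with one panel per gene. Points are flasks with their replicate numbers and bars are means ± SD (n = 3). BHLHE40 lies at 43.03 cpm or more in the treated flasks and at 21.95 cpm or less in the untreated flasks, CRY1 is highest in D1+ TGF-β and CRY2 in D20, and D1 replicate 2 is the top point for PER1, NR1D1 and NR1D2.

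The cryptochromes CRY1 and CRY2, the stronger repressors of the loop, moved in different directions between days in untreated cells. CRY1 was at 23.05, 21.61 and 25.17 cpm in D1 and at 29.73, 30.26 and 31.79 cpm in D1+ TGF-β. At day 20 it was at 19.06, 18.20 and 17.86 cpm without TGF-β and at 17.36, 17.47 and 20.67 cpm with it. The treated flasks lay above the untreated flasks at day 1 and overlapped them at day 20. CRY1 rose in D1+ TGF-β vs D1 (log2 fold change 0.40, SE 0.09, edgeR adjusted p = 0.00606) and not in D20+ TGF-β vs D20 (0.01, SE 0.09, adjusted p = 0.955). The difference of these responses, −0.39 (SE 0.13, adjusted p = 0.0486), was not called.

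CRY1 fell between days, by 0.73 on the log2 scale in D20+ TGF-β against D1+ TGF-β (SE 0.09, edgeR adjusted p = 3.61e-05) and by 0.34 in D20 vs D1 (SE 0.09, adjusted p = 0.00724). The first of these was called in every one of the 22 alternative analyses. The rise with TGF-β at day 1 was lost in 10 of the 22, with adjusted p up to 0.0254, among them those without D1 replicate 1 (0.0169), D1 replicate 2 (0.0114) or any 1 of the D1+ TGF-β flasks (0.0181 to 0.0254). The fall in D20 vs D1 was lost in 9 of the 22, with adjusted p up to 0.0340. CRY1 lies at chromosome 12, 107385142 to 107487327 on the − strand (GRCh37).

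CRY2 was highest in untreated cells at day 20. It was at 19.50, 19.91 and 16.98 cpm in D1, at 15.91, 17.00 and 15.25 cpm in D1+ TGF-β, at 27.07, 24.61 and 27.18 cpm in D20 and at 15.56, 18.98 and 17.47 cpm in D20+ TGF-β. The D20 flasks lay above the other 9 flasks, which overlapped one another between conditions. CRY2 was higher in D20 than in D1 (log2 fold change 0.48, SE 0.10, edgeR adjusted p = 0.00108) and lower in D20+ TGF-β vs D20 (−0.61, SE 0.10, adjusted p = 2.77e-04). Both calls held in all 22 alternative analyses.

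CRY2 was not called in D1+ TGF-β vs D1 (−0.22, SE 0.10, edgeR adjusted p = 0.133) or in D20+ TGF-β against D1+ TGF-β (0.09, SE 0.10, adjusted p = 0.469). The difference of the TGF-β responses was −0.39 (SE 0.14, adjusted p = 0.0689), which was not called, so the response at day 20 is not shown to differ from that at day 1. CRY2 lies at chromosome 11, 45868669 to 45904799 on the + strand (GRCh37).

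CLOCK and ARNTL, the activating arm of the loop, were called in none of the 4 comparisons. CLOCK was at 42.81, 50.72 and 39.48 cpm in D1, at 55.63, 56.40 and 52.52 cpm in D1+ TGF-β, at 44.61, 37.73 and 42.52 cpm in D20 and at 43.64, 46.34 and 49.51 cpm in D20+ TGF-β. The D1+ TGF-β flasks lay above all others, with a log2 difference of 0.31 from D1 (SE 0.10, edgeR adjusted p = 0.0341). Without D1 replicate 2 this difference was 0.43 and was called (adjusted p = 0.00254). In D20+ TGF-β against D1+ TGF-β, CLOCK gave −0.24 (SE 0.10, adjusted p = 0.0514).

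ARNTL was at 11.48, 14.43 and 15.22 cpm in D1, at 13.47, 13.93 and 13.62 cpm in D1+ TGF-β, at 11.06, 11.93 and 12.81 cpm in D20 and at 17.47, 14.03 and 16.06 cpm in D20+ TGF-β. The D20+ TGF-β flasks lay above the D20 flasks by 0.41 on the log2 scale (SE 0.12, edgeR adjusted p = 0.0130), close to the threshold. It was called in 6 of the 22 alternative analyses, among them those without D1 replicate 1 (adjusted p = 0.00499), D1 replicate 2 (0.00863) or D20+ TGF-β replicate 2 (0.00912). In D1+ TGF-β vs D1 the estimate was −0.003 (SE 0.12, adjusted p = 0.987).

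**Figure D2:**
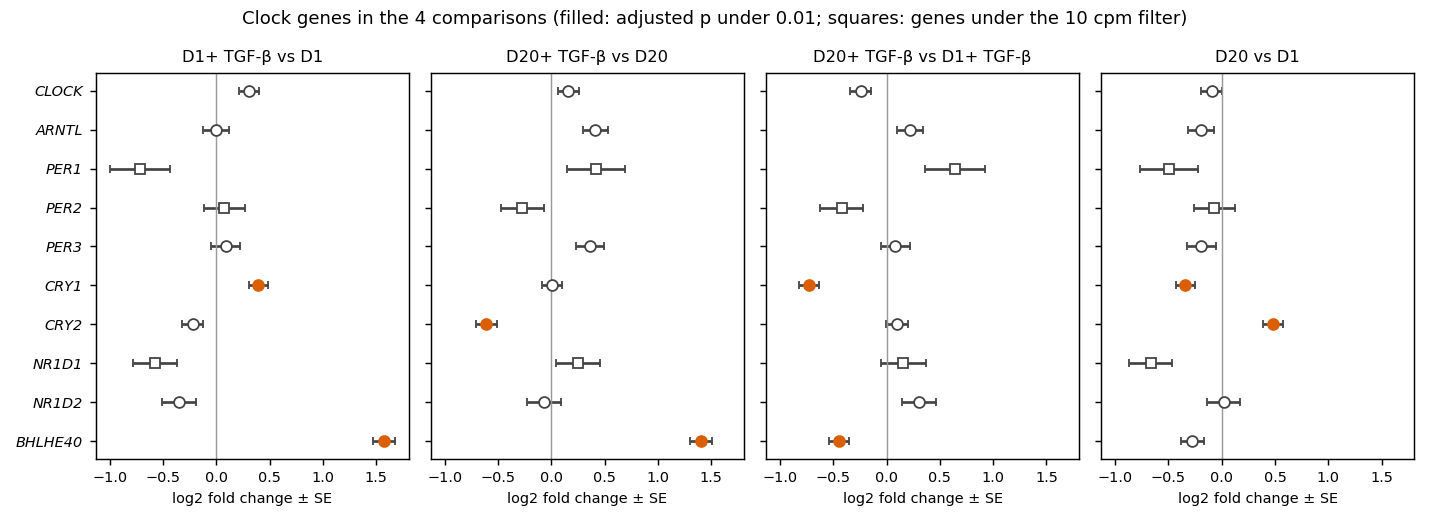
Log2 fold changes of the 10 clock genes in the 4 comparisons, one panel each. Points are edgeR estimates and bars are ± 1 SE, filled points were called at an adjusted p under 0.01, and squares mark the 3 genes tested in the fit with the lower limit. Filled points are BHLHE40 in 3 panels, CRY1 in 3 and CRY2 in 2, and the bars of PER1 and NR1D1 are the widest.

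The period genes PER1, PER2 and PER3, the partners of the cryptochromes, were low and were called in no comparison. PER2 lay between 3.23 and 6.04 cpm in all 12 libraries (32 to 91 counts), and its 4 conditions overlapped. Its log2 differences ranged from −0.42 (SE 0.20, edgeR adjusted p = 0.104, in D20+ TGF-β against D1+ TGF-β) to 0.08 (SE 0.20, adjusted p = 0.825, in D1+ TGF-β vs D1). PER3 was at 14.02, 15.54 and 13.30 cpm in D1, at 14.98, 13.38 and 17.82 cpm in D1+ TGF-β, at 12.96, 12.53 and 12.21 cpm in D20 and at 13.93, 15.35 and 19.45 cpm in D20+ TGF-β. The treated flasks of day 20 lay above the untreated ones by 0.36 (SE 0.14, adjusted p = 0.0463), which was not called. Without D20+ TGF-β replicate 3 this PER3 difference was 0.21 (edgeR adjusted p = 0.204). That of PER2 in D20+ TGF-β vs D20 went from −0.27 (adjusted p = 0.309) to −0.47 (adjusted p = 0.0810) without that library.

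PER1, an early gene that many hormones and serum induce, was at 5.83, 12.21 and 4.68 cpm in D1, at 4.41, 4.40 and 5.36 cpm in D1+ TGF-β, at 6.58, 5.67 and 4.81 cpm in D20 and at 7.75, 7.98 and 6.86 cpm in D20+ TGF-β. The value of D1 replicate 2 was the highest of the 12. The 4 sequencing lanes of that library gave 11.64 to 13.93 cpm before TMM scaling, against 3.02 to 6.94 cpm in the lanes of the other D1 libraries. PER1 was not called in D1+ TGF-β vs D1 (−0.71, SE 0.28, edgeR adjusted p = 0.0908), and without D1 replicate 2 that difference was −0.16 (adjusted p = 0.549). In D20 vs D1 it gave −0.49 (SE 0.27, adjusted p = 0.152), which was not called and turned to 0.06 without D1 replicate 2 (adjusted p = 0.830). In D20+ TGF-β against D1+ TGF-β it was higher by 0.64 (SE 0.29, adjusted p = 0.0811) with no overlap of flasks, and without D1 replicate 2, which neither group holds but which enters the shared spread, this was called (0.66, adjusted p = 0.00291).

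The nuclear receptors NR1D1 and NR1D2 were also highest in D1 replicate 2. NR1D1 was at 9.96, 19.52 and 10.71 cpm in D1, at 8.94, 9.70 and 8.38 cpm in D1+ TGF-β, at 8.86, 9.02 and 8.42 cpm in D20 and at 11.07, 10.90 and 9.21 cpm in D20+ TGF-β. The lanes of D1 replicate 2 gave 17.33 to 24.69 cpm before TMM scaling, above all lanes of the other D1 libraries (7.08 to 13.81 cpm). NR1D1 was not called in D20 vs D1 (−0.67, SE 0.20, edgeR adjusted p = 0.0150) or in D1+ TGF-β vs D1 (−0.57, SE 0.21, adjusted p = 0.0638). Without D1 replicate 2 these differences were −0.27 (adjusted p = 0.0878) and −0.18 (adjusted p = 0.324). With that library kept, the first was called without D1 replicate 1 (−0.84, adjusted p = 0.00379) and without D1 replicate 3 (−0.80, adjusted p = 0.00910).

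NR1D2 was at 52.01, 94.58 and 61.30 cpm in D1, at 52.38, 53.00 and 58.10 cpm in D1+ TGF-β, at 69.39, 72.93 and 69.22 cpm in D20 and at 63.36, 69.36 and 69.14 cpm in D20+ TGF-β. Apart from D1 replicate 2, the day 20 flasks lay above all day 1 flasks. With all libraries the differences were 0.02 in D20 vs D1 (SE 0.16, edgeR adjusted p = 0.928) and 0.30 in D20+ TGF-β against D1+ TGF-β (SE 0.16, adjusted p = 0.131), neither of them called. Without D1 replicate 2 both were called, at 0.32 (adjusted p = 0.00467) and 0.31 (adjusted p = 0.00295). In D1+ TGF-β vs D1, NR1D2 gave −0.35 (SE 0.16, edgeR adjusted p = 0.124), and without D1 replicate 2 it gave −0.05 (adjusted p = 0.667), neither of them called. The SD of NR1D2 in D1 was 22.4 cpm, against 2.09 to 3.40 cpm in the other conditions.

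**Figure D3:**
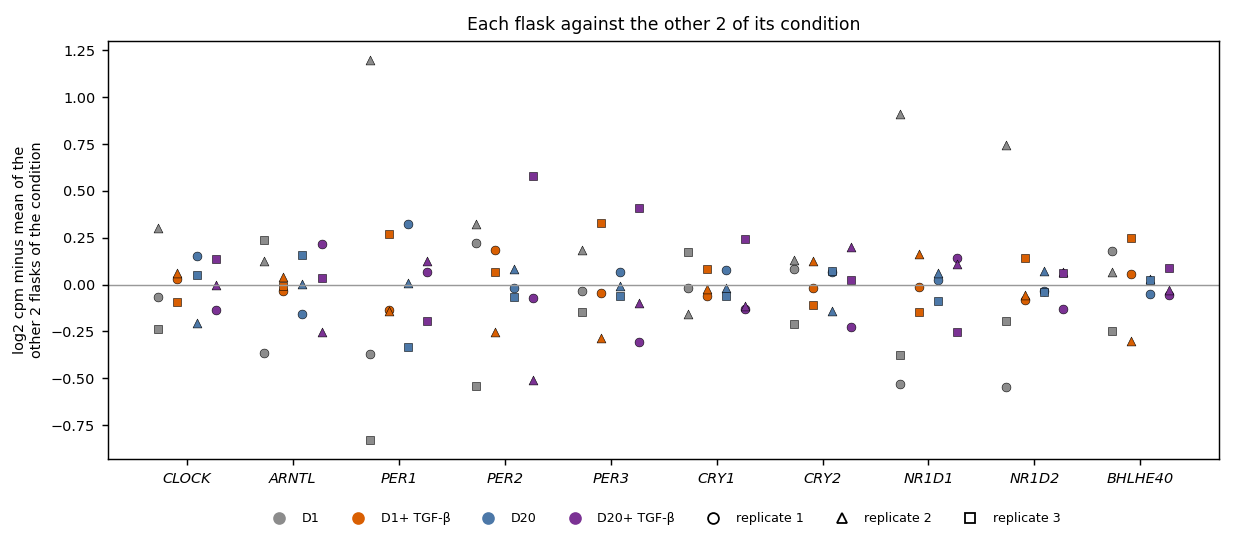
Log2 cpm of each flask minus the mean of the other 2 flasks of its condition, for the 10 clock genes. Colours give the condition and shapes the replicate number. D1 replicate 2 lies 1.20 above the other D1 flasks for PER1, 0.91 for NR1D1 and 0.74 for NR1D2, and 0.07 for BHLHE40.

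In D1 replicate 2, PER1, NR1D1 and NR1D2 were 3 of 10 clock genes at least 1.5-fold above both other flasks. Of the 13768 genes of the fit with the lower limit, 4.56% were so in that library. The other E-box gene among those shown, BHLHE40, was at 20.82 cpm there, between the values of the other D1 flasks. The log2 ratio of ARNTL to NR1D1, an activator of the loop and the repressor of its transcription, was −0.44 in D1 replicate 2 and between 0.20 and 0.80 in the other 11 libraries. ARNTL itself was at 14.43 cpm there, between the other D1 flasks (11.48 and 15.22 cpm). The low ratio therefore restates the high NR1D1 value and is not a further result. TEF, an output gene of the clock, was at 20.24 cpm in that flask, against 13.76 and 11.46 cpm, and RORA at 20.82 cpm, against 13.34 and 12.46 cpm. DBP, of the same family as TEF, was at 2.68 cpm, against 3.12 and 3.26 cpm. TEF and RORA stood furthest above among the other loop and output genes. On the log2 scale, against the mean of the other D1 flasks, USP2, NAMPT, WEE1, TIMELESS and BHLHE41 were higher (0.57, 0.46, 0.35, 0.35 and 0.11). ARNTL2, NPAS2, CIART and NFIL3 were lower (−0.29, −0.20, −0.04 and −0.03), as was HLF (−0.84), which was barely detected. Outside the clock, D1 replicate 2 had the highest summed level of 12 proliferation markers among the D1 flasks (1588 cpm, the lowest being 1074 cpm). It had the lowest summed level of 5 myofibroblast markers (976 cpm, the highest being 1637 cpm). The time of harvest of this flask relative to the others is not given in the sources used here. The part of harvest time or of these marker differences in the values was not tested.

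Over the 10 genes, 2 were called in D1+ TGF-β vs D1, both higher, where 13.4% of the 9490 genes were called. In D20+ TGF-β vs D20, 2 were called, 1 higher and 1 lower (background 27.5%), in D20+ TGF-β against D1+ TGF-β 2, both lower (34.8%), and in D20 vs D1 2, 1 higher and 1 lower (36.4%). In the fit with the lower limit, the background shares were 10.9%, 24.4%, 30.5% and 31.6%. For the difference of the TGF-β responses, edgeR called 0 genes out of 10, while unadjusted p fell under 0.05 for 5, and DESeq2 and limma called 0; the background was 10.4% (8.04% in the fit with the lower limit). A test for any difference among the 4 conditions called BHLHE40, CRY1 and CRY2 (3 of 10, background 60.3% and 53.7% in the main fit and the other).

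Among the 7 clock genes past the 10 cpm filter, flasks did not overlap for 3 in D1+ TGF-β vs D1 (36.4% of the 9490 genes), for 4 in D20+ TGF-β vs D20 (58.3%), for 5 in D20+ TGF-β against D1+ TGF-β (63.2%) and for 4 in D20 vs D1 (55.6%). The median log2 fold change of the 7 genes was 0.09, 0.16, 0.08 and −0.19 in these comparisons, against −0.02, 0.01, 0.01 and 0.01 over all genes tested. Without D1 replicate 2, the counts of called genes among the 10 were 2, 3, 4 and 3 in the 4 comparisons and 6 in the test for any difference. Without D20+ TGF-β replicate 3 they were 2, 2, 2 and 2, and 4.

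The levels of the genes can be set beside one another only per length of transcript. As mean cpm per kilobase of the canonical transcript, NR1D2 was first in D1 (13.2 ± 4.28, SD, n = 3) and D20 (13.5 ± 0.400), and BHLHE40 in D1+ TGF-β (19.2 ± 2.42) and D20+ TGF-β (14.03 ± 0.505). CRY1 ranked 2 in D1 and 3 in the other conditions, at 6.15 to 10.2 cpm per kilobase. PER3, PER1 and PER2 ranked 8, 9 and 10 in every condition, with PER2 at 0.662 to 0.870 cpm per kilobase. In D20, CRY2 (6.36 ± 0.352) and CRY1 (6.15 ± 0.208), ranked 2 and 3, differed by less than their spread. The same held for NR1D2 (10.4 ± 0.600) and CRY1 (10.2 ± 0.357) in D1+ TGF-β, for NR1D1, ARNTL, CRY2 and CLOCK in D1 (4.23 to 5.09), for ARNTL and CLOCK in D20 (4.28 and 3.98) and for CLOCK, CRY2 and NR1D1 in D20+ TGF-β (3.95 to 4.44). It also held for BHLHE40 (6.43 ± 0.649) and NR1D1 (5.09 ± 2.02) in D1, for CRY1 (6.19 ± 0.630) and ARNTL (5.69 ± 0.620) in D20+ TGF-β, and in D1 for PER1 (1.62 ± 0.867) with both PER3 (2.24 ± 0.180) and PER2 (0.811 ± 0.170). Spread here is the larger SD of the genes compared.

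Over the 12 libraries, the genes whose log2 cpm were most like each clock gene were found among the 9490 genes, as a description across libraries that share conditions. BHLHE40 was most like CDH2, LRRC15 and F2RL1 (Pearson r 0.98, 0.97 and 0.97). CRY1 was most like PSMD2, RGMB-AS1 and NAV3 (0.99, 0.98 and 0.97) and CRY2 was like MRVI1 and ZNF440 (0.97 and 0.96). For CLOCK they were FOXP1, FRYL and DIP2B (0.93, 0.93 and 0.92), for NR1D2 FBXO33, H2AFY and TPP2 (0.92, 0.92 and 0.92), for ARNTL RSL24D1, ATF1 and PFDN4 (0.90, 0.89 and 0.87) and for PER3 HNRNPUL2, AKAP13 and CDK8 (0.92, 0.88 and 0.83). Clock genes were left out of this ranking, so none could appear in it. No r between clock genes over the 12 libraries reached 0.83, the lowest listed here. Among the clock genes themselves, r was 0.79 for PER1 with NR1D1, 0.77 for PER1 with NR1D2, 0.76 for CLOCK with BHLHE40 and −0.79 for BHLHE40 with CRY2, and 0.20 for CLOCK with ARNTL. Without D1 replicate 2, in which PER1, NR1D1 and NR1D2 were highest, the first 2 were 0.43 and 0.53 over 11 libraries, while CLOCK with BHLHE40 gave 0.85 and BHLHE40 with CRY2 −0.80.

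The other genes of the core loop were a list of 8. The paralogs of CLOCK and ARNTL, NPAS2 and ARNTL2, changed with TGF-β. NPAS2 was at 22.20, 17.75 and 18.65 cpm in D1, at 33.68, 31.15 and 25.73 cpm in D1+ TGF-β, at 16.49, 14.77 and 13.59 cpm in D20 and at 33.14, 26.25 and 33.44 cpm in D20+ TGF-β. The treated flasks lay above the untreated ones at both times, and NPAS2 rose by 0.63 at day 1 (SE 0.13, edgeR adjusted p = 0.00311) and by 1.06 at day 20 (SE 0.13, adjusted p = 3.12e-05). The call at day 1 was lost without D1 replicate 3, D1+ TGF-β replicate 1 or D1+ TGF-β replicate 2 (adjusted p 0.0121, 0.0189 and 0.0198).

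ARNTL2 was at 43.90, 38.64 and 51.10 cpm in D1 and at 64.11, 67.15 and 66.95 cpm in D1+ TGF-β, and lay between 36.29 and 47.54 cpm in the 6 flasks of day 20. It rose in D1+ TGF-β vs D1 (0.57, SE 0.12, edgeR adjusted p = 0.00303) and was lower in D20+ TGF-β against D1+ TGF-β (−0.73, SE 0.12, adjusted p = 2.29e-04). In D20+ TGF-β vs D20 it gave 0.01 (adjusted p = 0.970). The rise at day 1 was lost without D1 replicate 1 or any 1 of the D1+ TGF-β flasks, with adjusted p of 0.0102 to 0.0174. The difference of responses, −0.57, was not called (adjusted p = 0.0278).

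BHLHE41 (DEC2), the paralog of BHLHE40, was low in 3 of the 4 conditions, between 3.13 and 3.98 cpm, and was at 9.83, 9.69 and 6.67 cpm in D20+ TGF-β. It was tested in the fit with the lower limit and rose in D20+ TGF-β vs D20 by 1.32 (SE 0.17, edgeR adjusted p = 3.00e-05) and in D20+ TGF-β against D1+ TGF-β by 1.25 (SE 0.17, adjusted p = 5.73e-05). In D1+ TGF-β vs D1 it gave −0.09 (SE 0.19, adjusted p = 0.795). BHLHE40 rose with TGF-β at both times, and BHLHE41 at day 20.

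TIMELESS, named for a fly clock gene and known in mammals for its role at replication forks, was at 41.37, 49.22 and 36.21 cpm in D1, at 43.09, 39.96 and 41.22 cpm in D1+ TGF-β, at 13.92, 15.14 and 14.49 cpm in D20 and at 24.83, 21.30 and 26.40 cpm in D20+ TGF-β. It fell in D20 vs D1 by 1.54 (SE 0.11, edgeR adjusted p = 3.02e-07) and rose in D20+ TGF-β vs D20 by 0.74 (SE 0.12, adjusted p = 2.50e-04). Markers of proliferating cells moved beside it: all 12 of a list of 12 were lower in D20 vs D1 (median −2.77) and 10 were higher in D20+ TGF-β vs D20. Their summed level was 1074 to 1588 cpm in D1, 1198 to 1267 cpm in D1+ TGF-β, 224 to 272 cpm in D20 and 426 to 660 cpm in D20+ TGF-β, and their part in the values of TIMELESS and of the clock genes was not tested.

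RORA, a receptor that activates ARNTL, was called in none of the 4 comparisons, at 8.94 to 25.56 cpm, with the largest difference in D20 vs D1 (0.59, SE 0.20, edgeR adjusted p = 0.0237). RORB was at 0 counts in all 12 libraries, and CIART, a repressor of the loop, lay between 2.86 and 5.73 cpm and was not called. Of the 4 genes of this list past the 10 cpm filter, 2 were higher in D1+ TGF-β vs D1, 2 higher in D20+ TGF-β vs D20, 2 lower in D20+ TGF-β against D1+ TGF-β and 1 lower in D20 vs D1. The background shares are those given above, and BHLHE41 and CIART, tested in the other fit, are not in these counts.

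**Figure D4:**
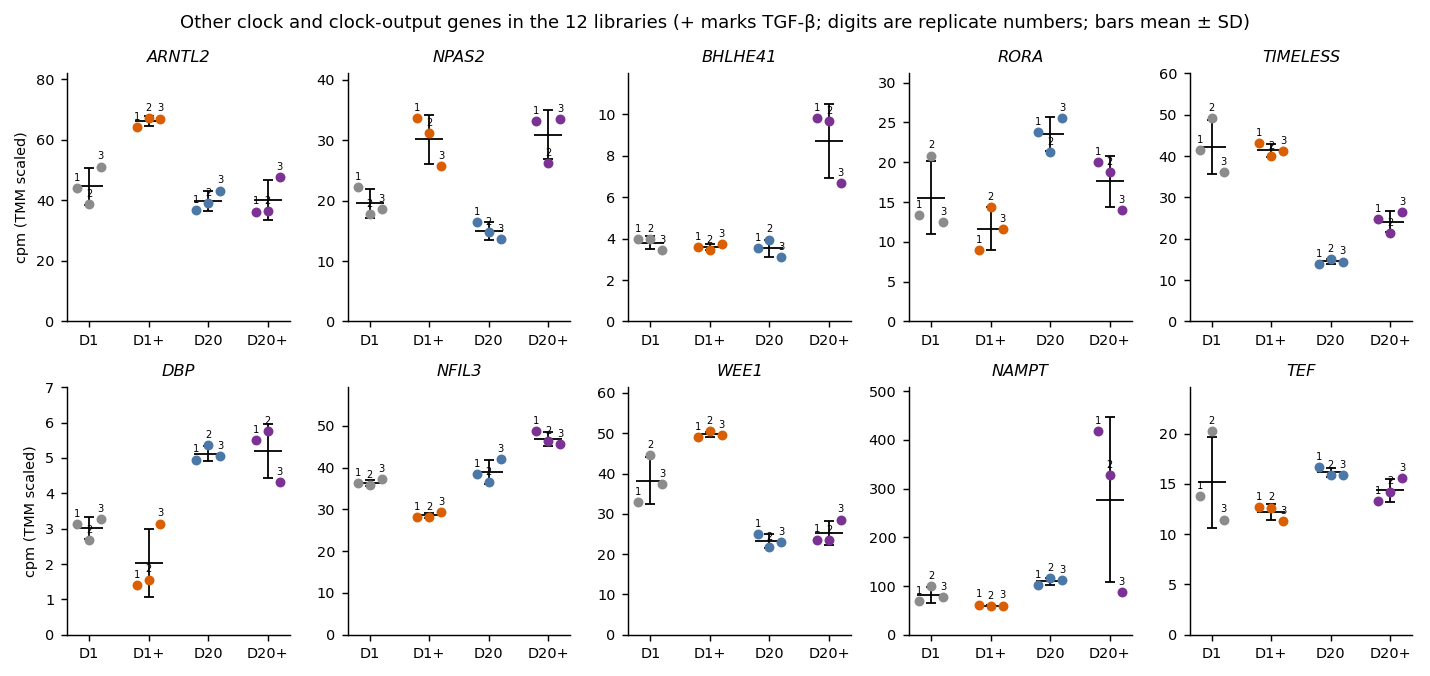
Levels of 10 other genes of the clock and of its outputs in the 12 libraries, in TMM-scaled cpm on linear axes that start at 0. Points are flasks with their replicate numbers and bars are means ± SD (n = 3). ARNTL2 is highest in D1+ TGF-β, NPAS2 in both treated conditions and BHLHE41 in D20+ TGF-β, and NAMPT in D20+ TGF-β spans 87.93 to 417.5 cpm.

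The outputs of the clock were a list of 7, with 4 past the 10 cpm filter. NFIL3, a repressor at D-boxes, was at 36.22, 35.84 and 37.22 cpm in D1 and at 28.11, 28.20 and 29.34 cpm in D1+ TGF-β, a fall of 0.35 (SE 0.07, edgeR adjusted p = 0.00372). At day 20 it was at 38.41, 36.54 and 42.04 cpm without TGF-β and at 48.70, 46.34 and 45.56 cpm with it, a rise of 0.27 (SE 0.07, adjusted p = 0.00885). Both differences were without overlap of flasks. The rise at day 20 was lost in 12 of the 22 alternative analyses (adjusted p up to 0.0516) and the fall at day 1 in 3 (up to 0.0243).

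DBP, an activator at D-boxes and a direct target of CLOCK and ARNTL, was low. It was at 3.12, 2.68 and 3.26 cpm in D1, at 1.39, 1.56 and 3.14 cpm in D1+ TGF-β, at 4.96, 5.37 and 5.05 cpm in D20 and at 5.51, 5.76 and 4.32 cpm in D20+ TGF-β. All day 20 flasks lay above all day 1 flasks. DBP was higher in D20+ TGF-β against D1+ TGF-β by 1.37 (SE 0.24, edgeR adjusted p = 4.02e-04) and gave 0.73 in D20 vs D1 (SE 0.22, adjusted p = 0.0137), which was not called. TEF lay between 11.29 and 20.24 cpm and was not called. HLF had at most 2 counts in any library, and USP2 lay between 0.582 and 1.79 cpm and was not called.

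WEE1, a kinase that holds back mitosis and a known target of the clock, was at 32.84, 44.52 and 37.30 cpm in D1 and at 49.13, 50.49 and 49.60 cpm in D1+ TGF-β. In the 6 flasks of day 20 it lay between 21.77 and 28.56 cpm. It was lower in D20 vs D1 (−0.72, SE 0.11, edgeR adjusted p = 1.36e-04) and in D20+ TGF-β against D1+ TGF-β (−0.99, SE 0.11, adjusted p = 1.59e-05). The fall of the proliferation markers in these comparisons stood beside it.

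NAMPT, an enzyme of NAD synthesis, was at 417.5 and 327.2 cpm in 2 of the D20+ TGF-β flasks and at 87.93 cpm in the other, D20+ TGF-β replicate 3, below the D20 flasks (101.2 to 115.9 cpm). It was called higher in D20+ TGF-β vs D20 (1.34, SE 0.37, edgeR adjusted p = 0.00986) although flasks overlapped, and the call was lost in 14 of the 22 alternative analyses. Without D20+ TGF-β replicate 3 the difference was 1.76 (adjusted p = 3.59e-07). In D20+ TGF-β against D1+ TGF-β it was 2.22 (SE 0.38, adjusted p = 3.68e-04). Of the 4 output genes past the filter, 1 was lower in D1+ TGF-β vs D1, 2 were higher in D20+ TGF-β vs D20, 2 were higher and 1 lower in D20+ TGF-β against D1+ TGF-β, and 1 was lower in D20 vs D1. Over all 9490 genes the shares called were 13.4%, 27.5%, 34.8% and 36.4% in this order.

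Kinases, phosphatases, ubiquitin ligases and cofactors that modify clock proteins were a list of 25, of which 24 were tested. In D1+ TGF-β vs D1 edgeR called 0 of them, 4 had an unadjusted p under 0.05, and DESeq2 and limma called 0. In D20+ TGF-β vs D20, 3 were lower and none higher. BTRC, a subunit of the ligase that marks PER proteins for breakdown, was at 80.35, 79.87 and 76.50 cpm in D20 and at 51.40, 54.82 and 41.52 cpm in D20+ TGF-β (−0.68, SE 0.10, edgeR adjusted p = 1.87e-04). CSNK1D and CSNK1A1, casein kinases that phosphorylate PER proteins, gave −0.38 (SE 0.06, adjusted p = 3.94e-04) and −0.28 (SE 0.07, adjusted p = 0.00426). The call of CSNK1A1 was lost in 7 of the 22 alternative analyses.

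In D20+ TGF-β against D1+ TGF-β, 3 of the 24 were lower and none higher: PPP5C, a phosphatase (−0.39, edgeR adjusted p = 5.75e-04), CSNK2B, the regulatory subunit of casein kinase 2 (−0.29, adjusted p = 0.00481), and WDR5, a subunit of histone methyltransferases (−0.29, adjusted p = 0.00618). The call of CSNK2B was lost in 5 of the 22 alternative analyses (adjusted p up to 0.0291) and that of WDR5 in 8 (up to 0.0299). For CSNK2B in this comparison, the paper reported a difference in its RNA sequencing but no significant one by real-time PCR. In D20 vs D1, 2 were higher and 3 lower, with the smallest p for PPP5C (−0.50, adjusted p = 6.64e-05), WDR5 (−0.40, adjusted p = 5.84e-04) and GSK3B, a kinase of several clock proteins (0.37, adjusted p = 6.71e-04). The median log2 fold change of the 24 genes was 0.00, 0.01, −0.01 and 0.08 in the 4 comparisons. The background shares are those given above for the 4 comparisons, and no test of the list was made.

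Of the clock genes, 4 overlap a protein-coding gene on the opposite strand in the annotation of GRCh37: CLOCK with TMEM165, PER3 with UTS2, NR1D1 with THRA and NR1D2 with NKIRAS1. The library kit marks strand, but whether the counting used it is not given in the sources used here, so reads of the members of a pair may not be told apart. PER1 overlaps a protein-coding gene on the same strand, ENSG00000263620, where strand would not separate the reads. THRA was lower in D1+ TGF-β vs D1 (−0.38, edgeR adjusted p = 0.00889), and in D1 replicate 2 it was at 26.18 cpm, equal to D1 replicate 3, while NR1D1 was at 19.52 against 10.71 cpm. TMEM165 was higher in D20 vs D1 (0.46, adjusted p = 0.00498), where CLOCK gave −0.10. NKIRAS1 was not called and lay between 12.40 and 15.84 cpm, and UTS2 had at most 2 counts in any library.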

How the data were processed

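RNA of 12 flasks of WI-38 cells was sequenced by the authors from a directional library kit, each library on 4 lanes. Reads were trimmed with Trimmomatic and mapped to hg19 with Rsubread. The program, annotation and strand setting of the counting are not given in the sources used here. The authors deposited raw counts per gene and lane, which were the main source, and log2 cpm per gene and lane from voom, which served as an alternative.

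The 4 lanes of a library were summed. The main filter kept the 9490 genes that reached 10 cpm, before TMM scaling, in 6 libraries or more. Clock genes under that limit were taken from a fit to the 13768 genes kept by filterByExpr. Tests used R 4.3.3 and edgeR 4.0.16, with TMM factors, a quasi-likelihood fit over all 12 libraries with 1 mean per condition, and Benjamini-Hochberg adjustment over the genes of the fit. Calls needed an adjusted p under 0.01. No exact permutation test was used, since 3 flasks per group allow no p below 0.1. The common biological coefficient of variation was 9.35%. The SE of a log2 fold change was taken as its size divided by the square root of F. The code was tested on simulated data.

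Alternatives were DESeq2 1.42.0, limma 3.58.1 (voom on the counts, and on the deposited log2 values after averaging the lanes), filterByExpr as the filter, no gene filter, no composition factor, RLE factors, only the libraries compared, replicate numbers as a block, and leaving out each library in turn. Leaving out D1 replicate 2 and D20+ TGF-β replicate 3 together was chosen after seeing the data.

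The clock genes and the lists were chosen with earlier results of these data known. The genes named are, by rule, all 10 clock genes, all of the lists of other loop genes and of outputs, the 3 called genes with the smallest p per comparison of the list of kinases and cofactors, and the 3 genes most like each tested clock gene. A few genes that meet this rule are not reported here. Coordinates of genes are from GENCODE v44 lifted to GRCh37.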

Additional observations from a re-analysis of the deposited data

Results flagged for a closer look

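For 3 genes of the lists beside the clock genes, the TGF-β response at day 20 differed from that at day 1 in edgeR's test of the difference itself. BHLHE41 had a response larger by 1.40 on the log2 scale at day 20 (adjusted p = 0.00180). It held in all alternative analyses that gave a value, at 1.31 to 1.55. NFIL3 fell with TGF-β at day 1 and rose at day 20, a difference of 0.62 (adjusted p = 0.00111), and this also held in every alternative (0.57 to 0.72). TIMELESS had a difference of 0.77 (adjusted p = 0.00405), which was lost in 6 of 21 alternatives, with adjusted p up to 0.0150. In the same test 10 of the 12 proliferation markers were higher (median 1.42), and their part in the value of TIMELESS was not tested. BHLHE41, NFIL3 and TIMELESS were each without overlap of flasks in D20+ TGF-β vs D20. Of all 9490 genes, 10.4% had such a difference, and of the 13768 genes of the fit that held BHLHE41, 8.04%. None of the 10 clock genes passed this test.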

How the results depend on the processing

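The calls of BHLHE40 in both TGF-β comparisons, of CRY1 in D20+ TGF-β against D1+ TGF-β and of CRY2 in D20+ TGF-β vs D20 and D20 vs D1 kept their direction and their side of the threshold in all 22 alternatives. The count of clock genes called, 2 in each of the 4 comparisons, moved as follows. In D1+ TGF-β vs D1 it was 1 with no composition factor, with no gene filter and with only the libraries compared, where CRY1 missed the threshold. With only the libraries compared it was 4 in D20+ TGF-β against D1+ TGF-β and 1 in D20 vs D1. In D20+ TGF-β vs D20 it was 3 with no composition factor and on the deposited log2 values, and in D20 vs D1 it was 3 with DESeq2 and with no gene filter. The test for any difference called 5 of the 10 genes with no gene filter and 4 with RLE factors, filterByExpr or DESeq2, against 3. Leaving out D1 replicate 2 and D20+ TGF-β replicate 3 together gave 3, 3, 5 and 3 calls, and 6 for any difference. Leaving out 1 library at a time gave 1 to 2, 2 to 3, 1 to 4 and 1 to 3 calls, 0 to 0 for the difference of responses and 3 to 6 for any difference. The cause of these moves was not tested.

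No value that changed sign was called in the main analysis. The largest of them were PER1 in D20 vs D1 (−0.49) and the difference of responses of NR1D2 (0.28), which both turned without D1 replicate 2. ARNTL in D1+ TGF-β vs D1 turned from −0.003 to 0.0015 with RLE factors and with DESeq2, 0.0067 with limma-voom, 0.018 on the deposited log2 values, 0.0091 with only the libraries compared, 4.2e-04 with the replicate block, and 0.047 with both libraries left out. NR1D2 in D20 vs D1 turned from 0.02 to −0.057 with no composition factor, −0.058 with no gene filter, −0.020 with filterByExpr and −0.010 with only the libraries compared. With both libraries left out, CRY1 in D20+ TGF-β vs D20 was −0.058, PER3 between the treated days −0.063, PER1 and PER2 in D20 vs D1 0.028 and 0.025, and the difference of responses of NR1D2 −0.026. Leaving out 1 library gave −0.11 to 0.073 for ARNTL, −0.077 to 0.19 for PER2 and −0.025 to 0.20 for PER3 in D1+ TGF-β vs D1. It gave −0.15 to 0.32 for NR1D2, −0.17 to 0.020 for CLOCK, −0.74 to 0.061 for PER1 and −0.22 to 0.052 for PER2 in D20 vs D1. It gave −0.075 to 0.079 for CRY1 in D20+ TGF-β vs D20, −0.061 to 0.20 for PER3 between the treated days, and −0.010 to 0.45 for the difference of responses of NR1D2.

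The replicate numbers did not pair the libraries: of 18 correlations between same-numbered libraries of 2 conditions, 4 were over 0.1 (range −0.22 to 0.32). A fit with the replicate number as a block gave 2 calls in each of the 4 comparisons, 0 for the difference of responses and 3 for any difference, the same counts as without it. PER1, PER2 and NR1D1 had 32 to 299 counts per library and SEs of 0.19 to 0.29 on the log2 scale, against 0.09 for CRY1.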
